A study of Xenopus laevis with 3 samples.

Results

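Immediate early genes were examined in the juvenile inner ear of Xenopus laevis, with fos, jun, junb, jund, atf3, btg2 and ier2 as the genes that could be named. The members were chosen by symbol, with the pool values of fos and its list already known, and were the Xl-PSIDs (probe sets of the Xenopus GeneChip) that carry exactly 1 gene symbol, once the homeolog suffix is dropped, out of 11 symbols for the fos and jun families, egr1, atf3, btg2 and ier2. This gave 12 of 32539 Xl-PSIDs, for 7 of the 11 symbols. For egr1, fosb, fosl1 and fosl2 no Xl-PSID carried exactly 1 symbol, so these genes were not analysed here. A further 2 Xl-PSIDs carried the symbols of both homeologs of a gene, 1 for jun and 1 for egr1, and their values were not used. All 3 arrays belong to a single group of post metamorphic juveniles of about 3 months, with no treatment named in the labels. Replicates 1, 2 and 3 each held RNA pooled from the inner ears of 5, 5 and 6 animals, with mean weights of 9.0, 9.6 and 9.6 g, and no separate animal was measured. The larval stages of the study were not analysed here. The question was how far the levels of these genes differed between pools of the same stage.

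Immediate early genes are transcribed within minutes of a stimulus, without the need for new protein. Kinase cascades activate factors already bound at their promoters, such as serum response factor with its Elk partners and Creb, and the transcripts decay quickly once the stimulus ends. In the mammalian inner ear and elsewhere, fos is used as a marker of recent activity, injury or handling of tissue. Its protein does not form stable pairs with itself and instead pairs through a leucine zipper with a Jun protein to form the AP-1 factor, while Jun proteins can also pair with each other. Xenopus laevis is an allotetraploid, so most of these genes exist as an L and an S homeolog.

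Values are GCRMA intensities on a log2 scale, in arbitrary units of fluorescence, and means are given ± SD over n = 3 arrays. A value near 2 is the floor of this scale, and detection was taken as an average of at least 4, the minimum set in the methods of the study. Array medians were 7.57, 7.49 and 7.53 on replicates 1, 2 and 3. All 13 measured genes of 14 on the inner ear list, among them gata3 and otos, were detected, but so were all 10 skeletal muscle, 5 skin gland and 5 erythrocyte markers measured, so detection alone does not set the labelled tissue apart. Control transcripts had less 5′ signal relative to their 3′ signal on replicate 3. There the 5′ minus 3′ difference was -3.87 for ef1a, against -3.13 and -3 on replicates 1 and 2. For gapdh it was -1.36 on replicate 3, against -1.13 and -1.04. The methods of the study state that every replicate used on an array met a minimum RNA integrity number, a score of RNA quality. Each pool was read by 1 array, so a difference between pools is itself the spread between replicates. No test between pools could be made. Each pool held RNA of several animals, and sessions of dissection, extraction or scanning are not given in the labels or methods.

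Of the members, the fos transcript differed most between the pools. Its single Xl-PSID, Xl2.10283.1.S1_at for the homeolog fos.S, read 9.28, 9.82 and 6.33 on replicates 1, 2 and 3. Replicates 1 and 2 lay close together and replicate 3 was far below both, although still above the detection minimum. Replicate 3 was 2.95 below replicate 1 and 3.49 below replicate 2 on the log2 scale, the latter a ratio of 11.2 in intensity. The mean was 8.47 ± 1.88, and limma, testing one-sided whether the mean exceeded 4, gave a Benjamini-Hochberg adjusted p of 0.0217. That call depended on which arrays were used. With 2 arrays, limma gave an adjusted p of 0.102 without replicate 1, 0.0841 without replicate 2 and 0.00762 without replicate 3. The pattern of fos was known when these genes were chosen, so its values are a description. Fewer cells that express a gene and less RNA per cell cannot be told apart in pooled tissue.

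**Figure D1:**
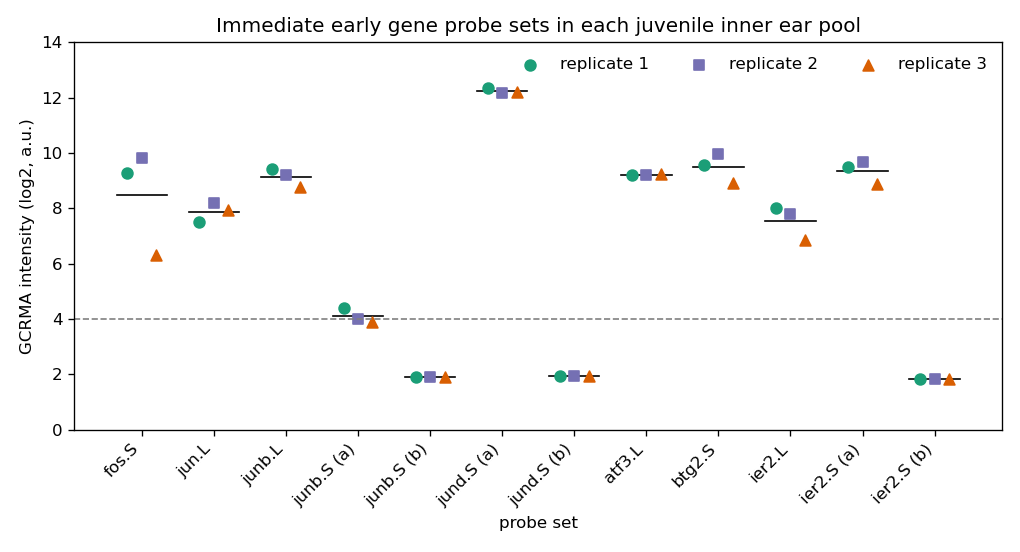
GCRMA intensity (log2, a.u.) of the 12 Xl-PSIDs on replicates 1, 2 and 3, with horizontal bars for means and a dashed line at the detection minimum of 4; letters a and b separate Xl-PSIDs of 1 homeolog in order of mean. Replicate 3 of fos.S, at 6.33, stands apart from 9.28 and 9.82, while the arrays of jund.S (a) and atf3.L nearly coincide.

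The jun family, which supplies the DNA binding partners of Fos, varied far less. For jun.L (Xl2.542.1.S1_at) the values were 7.51, 8.19 and 7.95 on replicates 1, 2 and 3. Here replicate 1 was lowest and replicate 3 lay between the others, an order unlike that of fos. For junb.L (Xl2.16457.1.S1_at), a family member that in mammals is induced rapidly and can restrain Jun, the values were 9.43, 9.22 and 8.77. An Xl-PSID for the other homeolog, junb.S (Xl2.56932.1.S1_at), was close to the minimum at 4.413, 4.003 and 3.892. Both junb homeologs were highest on replicate 1 and lowest on replicate 3, and replicate 3 minus the mean of the others was -0.56 for junb.L and -0.32 for junb.S on the log2 scale. Transcripts for jund.S (Xl2.23976.1.S1_at), which in mammals is present without stimulation, read 12.34, 12.18 and 12.21. The spread of jund.S was 0.15 from highest to lowest array, so it hardly distinguished the pools.

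The 3 genes outside the fos and jun families differed from each other in how they varied. Atf3 encodes a stress-induced bZIP factor that can pair with Jun proteins, and atf3.L (Xl2.48702.1.S1_at) read 9.20, 9.19 and 9.26 on replicates 1, 2 and 3. Its range of 0.07 was the smallest of any detected member, and replicate 3 was the highest array. Btg2 encodes an antiproliferative protein that acts with the mRNA deadenylase complex, and btg2.S (Xl2.48530.1.S1_at) read 9.55, 9.97 and 8.91. As for fos, replicate 2 was highest and replicate 3 lowest, but the difference between them was 1.05, a ratio of 2.07. Ier2 encodes a small nuclear protein whose mRNA responds rapidly to growth factors in mammals. Its L homeolog (Xl2.15421.1.S1_at) read 7.999, 7.788 and 6.868, and its S homeolog (Xl2.8317.1.S1_at) read 9.51, 9.66 and 8.89. Both ier2 homeologs were lowest on replicate 3, which minus the mean of the others was -1.03 for ier2.L and -0.69 for ier2.S. In the RefSeq gene table junb and ier2 share a chromosome, with 13 protein coding genes between the L copies and 3 between the S copies.

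Detection was tested across all Xl-PSIDs. A mean of 4 or more was reached by 9 of the 12 members, against 64.4% of all 32539 Xl-PSIDs, and the one-sided limma test passed 8 of the 12 at a Benjamini-Hochberg adjusted p below 0.05, against 62.2%. The shares of members, 75% and 66.7%, were near those of all Xl-PSIDs. Apart from fos, the limma adjusted p of the 7 others that passed ranged from 1.2e-05 for atf3.L to 0.00255 for ier2.L. The exception among the 9 was junb.S at 4.10 ± 0.27 (limma adjusted p = 0.413). The 3 members that were not detected were further Xl-PSIDs for jund.S, ier2.S and junb.S, at means of 1.93, 1.82 and 1.90. For jund.S and ier2.S another Xl-PSID passed the limma test, so a floor value on 1 Xl-PSID does not show that the transcript was missing. For junb.S the other Xl-PSID was the one at 4.10, which did not pass, so detection of this homeolog was not settled.

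Differences of 1.5 or more on the log2 scale, the fold change minimum of the study, were then counted for each of the 3 pairs of pools. Between replicates 1 and 2 the count was 0 of 12 members, against 1.28% of all Xl-PSIDs. Between replicates 1 and 3 it was 1 of 12, against 1.15%, and between replicates 2 and 3 it was 1 of 12, against 1.04%. In both counts the member was fos, lower on replicate 3, a direction found for 0.682% and 0.492% of all Xl-PSIDs in these pairs. At a minimum of 1 the pairs with replicate 3 each gained another member, ier2.L against replicate 1 (1.13) and btg2 against replicate 2 (1.05), where 3.31% and 3.22% of all Xl-PSIDs differed. Between replicates 1 and 2 no member differed by 1 or more, against 3.64%. With such small counts 1 gene decides each share.

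Smaller differences leaned the same way for some members. Replicate 3 was the lowest array for 6 of 12 members, against 24.6% of all Xl-PSIDs. These were fos.S, ier2.L, ier2.S, btg2.S, junb.L and junb.S, and each of them had a mean of 4 or more. Among all detected Xl-PSIDs, 33.6% were lowest on replicate 3. Replicate 1 was lowest for 4 of 12, against 45.9%, namely jun.L and the 3 members at the floor, whose arrays differed by less than the second decimal. Replicate 2 was lowest for 2 of 12, jund.S and atf3.L, against 29.5%. The median over the 12 members of replicate 3 minus the mean of the others was -0.19, against 0.00391 over all Xl-PSIDs. For replicates 1 and 2 the corresponding medians were 0.13 and 0.06. Without the 3 members at the floor the medians were 0.24, 0.35 and -0.56 for replicates 1, 2 and 3, and with 1 value per gene 0.14, 0.46 and -0.56, so which of replicates 1 and 2 had the larger median depended on the members counted. The 12 Xl-PSIDs stand for 7 genes and were chosen with this tendency known, so these figures describe the members and carry no test.

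**Figure D2:**
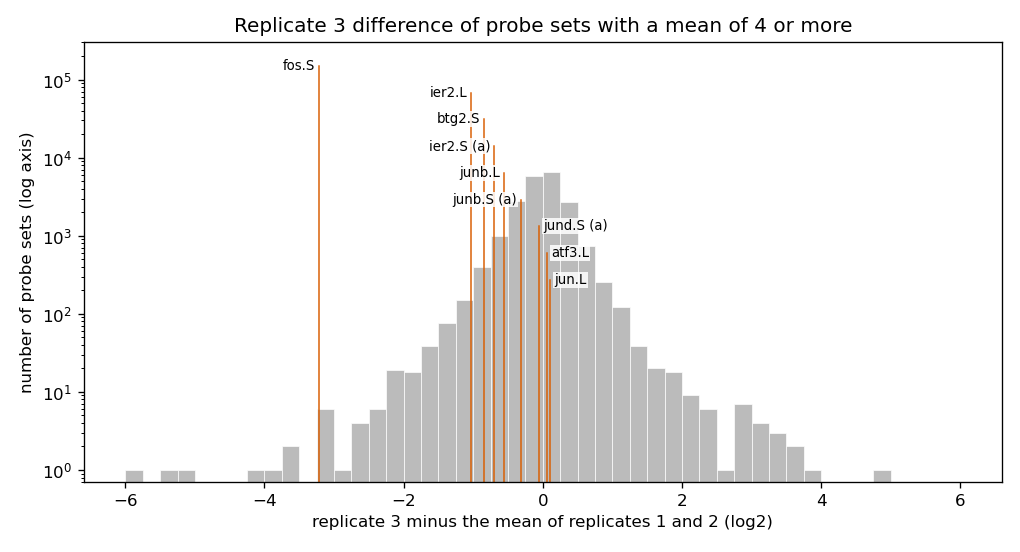
Histogram of replicate 3 minus the mean of replicates 1 and 2 (log2, x axis) over the 20942 Xl-PSIDs with a mean of 4 or more, with the number of Xl-PSIDs on a log axis and an orange line for each of the 9 detected members (the height of a line has no meaning). The line for fos.S is at -3.22, in the sparse left tail, and the others lie between -1.03 and 0.11.

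The size of these differences was set against all detected Xl-PSIDs. A range across the arrays as large as that of fos was found for 42 of 20942 detected Xl-PSIDs (0.201%). The next largest ranges among members were 1.13 for ier2.L and 1.05 for btg2.S, which 6.2% and 7.47% of detected Xl-PSIDs equalled or exceeded. For jun.L and junb.L, with ranges of 0.68 and 0.66, the shares were 19.7% and 20.9%. For jund.S and atf3.L they were 84.8% and 95.4%. Thus fos lay in the extreme of the distribution, ier2.L and btg2.S in its upper part, and jund.S and atf3.L varied less than most detected Xl-PSIDs.

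Other rapidly induced transcription factors did not show a difference of the size seen for fos. Of 10 such genes measured, 9 were detected and none had a range of 1.5 or more, where 2.36% of all Xl-PSIDs did. For comparison with this and the following lists, 64.4% of all Xl-PSIDs were detected. Of all Xl-PSIDs, 24.6% were lowest on replicate 3 and 29.5% on replicate 2. Among detected Xl-PSIDs, to which most list genes belong, 33.6% were lowest on replicate 3. The share of detected Xl-PSIDs lowest on replicate 2 was not counted. Nor were shares highest on any replicate, so list counts of that kind stand without a comparison. The nuclear receptor nr4a1.L, which had the highest mean in this list, read 13.73, 13.83 and 13.28 on replicates 1, 2 and 3. An Xl-PSID for klf2.S, a Krüppel-like factor of endothelium, had the largest range of the list and read 8.49, 9.02 and 7.77. Another Xl-PSID for klf2.S, of higher mean, differed less, at 10.69, 11.05 and 10.52. Both genes were highest on replicate 2 and lowest on replicate 3, the order found for fos and btg2. In the list, 4 of 10 genes were lowest on replicate 3, and the median of replicate 3 minus the others was -0.08.

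Rapidly induced genes outside the transcription factors, including feedback inhibitors, were represented by 26 genes, of which 24 were detected. A single one of them, socs3, had a range of 1.5 or more on its Xl-PSID of highest mean. Socs3 encodes an inhibitor of cytokine signalling, and socs3.S read 10.46, 8.59 and 8.29 on replicates 1, 2 and 3. It was high on replicate 1 alone, so replicates 2 and 3 lay together, unlike fos. The largest range belonged to an Xl-PSID for the kinase pim1.L, at 2.05, 4.76 and 2.65, which was below the minimum on average. Another Xl-PSID for pim1.L was well above the minimum and differed little, at 10.39, 10.14 and 10.10. The mRNA decay factor zfp36l2.S had the highest mean and read 14.43, 14.44 and 14.52. Replicate 3 was lowest for 13 of the 26 genes, against 24.6% of all and 33.6% of detected Xl-PSIDs. The list median of replicate 3 minus the others was -0.13.

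The factors and kinases upstream of these promoters differed between pools in both directions, by less than the difference minimum. Of 14 genes measured, 13 were detected and none had a range of 1.5 or more. The stress kinase mapk14.S read 12.47, 12.51 and 12.52. An Xl-PSID for map2k7.L, which activates Jun kinases, had the largest range at 5.40, 6.46 and 5.97. Another Xl-PSID for map2k7.L, of higher mean, hardly differed between pools, at 8.96, 9.03 and 9.01. The promoter factors differed in order, since creb1.S read 11.86, 11.56 and 11.26 and was lowest on replicate 3, while srf.L was just below the detection minimum at 3.76, 3.49 and 4.11 and was highest there. The list median of replicate 3 minus the others was 0.08, of opposite sign to that of the members, and 2 of 14 genes were lowest on replicate 3.

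Other bZIP factors, listed as partners or relatives of Fos, Jun and Atf3, numbered 12, of which 11 were detected. None had a range of 1.5 or more. An Xl-PSID for cebpd.L, a factor of the acute phase response, had the largest range at 10.96, 10.80 and 10.03, and the oxidative stress regulator nfe2l2.L had the highest mean at 13.61, 13.75 and 13.67. Their list median of replicate 3 minus the others was -0.00488. On their Xl-PSIDs of highest mean, 3 of the 12 genes, cebpd among them, were lowest on replicate 3, and 4 of the 12 were highest there. Atf1, a relative of Creb, belongs to both this list and the upstream list.

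Genes that AP-1 is known to activate in mammals were also examined. Of 10 measured, 6 were detected, and the matrix metalloproteinases mmp1, mmp3 and mmp13 and the cytokine lif were not. The collagenase mmp13.S had the largest range at 4.09, 2.47 and 4.41, lowest on replicate 2 and highest on replicate 3. The intermediate filament gene vim.S had the highest mean at 13.86, 13.78 and 13.55. The list median of replicate 3 minus the others was 0.00531, and 3 of 10 genes were lowest on replicate 3. No gene of this list was lower on replicate 3 than the mean of the others by 1.5 or more. Against replicates 1 and 2 singly, 0.682% and 0.492% of all Xl-PSIDs were. Having none among 10 genes therefore does not set this list apart.

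Heat shock genes, listed together with other chaperones and with heat shock factors, were measured for 15 genes, of which 13 were detected. Some of them respond to protein damage through another factor. The chaperone hsp90ab1.S read 14.41, 14.25 and 14.46. The inducible chaperone hspa1a.S was high on replicate 2 alone, at 3.57, 6.07 and 3.59 on 1 Xl-PSID and 3.97, 5.66 and 4.01 on another that can match related transcripts. Neither Xl-PSID passed the limma detection test (adjusted p = 0.485 and 0.287). Most of the list ran otherwise, since 9 of 15 genes were lowest on replicate 2 and 3 were highest there, and the median of replicate 2 minus the others was -0.09. The chaperone hsph1.S, for example, read 10.57, 10.05 and 10.91. The list median of replicate 3 minus the others was 0.01.

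**Figure D3:**
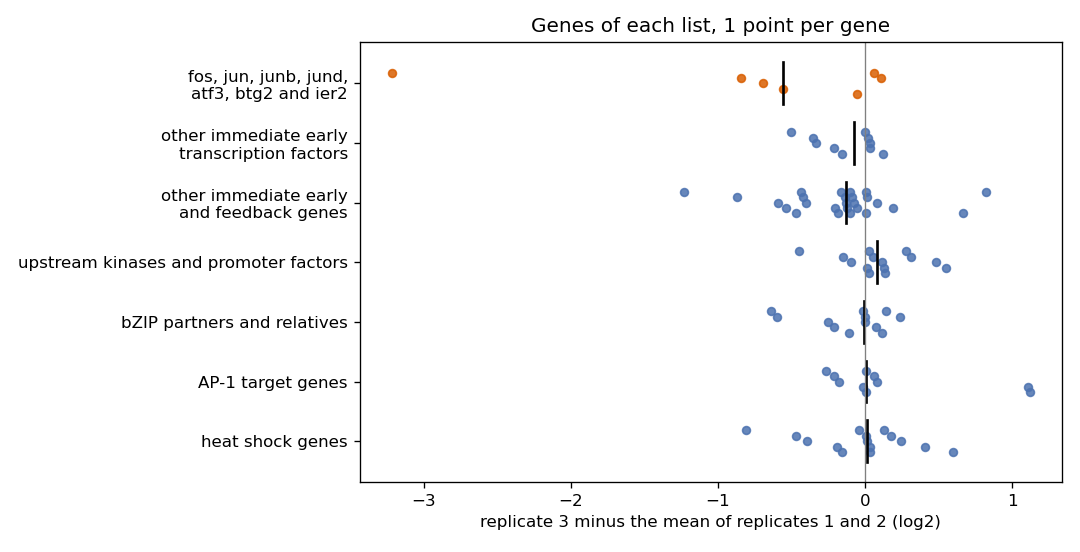
Replicate 3 minus the mean of replicates 1 and 2 (log2, x axis) for each gene, by list, with 1 point per gene at its Xl-PSID of highest mean and a black bar at the list median. The point for fos is at -3.22; in the 6 other lists the lowest point is socs3 at -1.23 and the highest is mmp13 at 1.12.

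The Xl-PSIDs nearest to fos in both the size and the order of its pool differences were not other members. Likeness was the Euclidean distance between the deviations of the 3 arrays from their own mean, over detected Xl-PSIDs with 1 symbol. The deviations were not scaled, so an Xl-PSID of much smaller range could not be near fos, whatever its order of pools. No other member had a range above 1.13, so the distances of members mostly reflect size. In order alone, btg2.S and ier2.S were, as fos, highest on replicate 2 and lowest on replicate 3. The 5 nearest comprised 3 Xl-PSIDs for xt6l.L, 1 for levi.2.L and 1 for sgp.S, at distances from 0.331 to 0.485. The products of xt6l and levi.2 are related to peptides that Xenopus skin glands secrete. The Xl-PSID for levi.2.L read 8.34, 8.41 and 5.25, and the nearest for xt6l.L read 9.51, 9.62 and 6.52. Among the members the nearest to fos was ier2.L at 1.87, with 137 Xl-PSIDs of other genes nearer, followed by btg2.S at 1.94. The most distant were atf3.L and jun.L, at 2.71 and 2.72. These distances rest on 3 arrays and describe them alone.

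Few transcripts were as much lower on replicate 3 as fos. Replicate 3 lay below both other arrays by at least the 2.95 of fos for 12 of 20942 detected Xl-PSIDs. Of these, 8 had 1 symbol, and besides fos.S they stood for xenoxin1, levi, levi.2, xt6l, sgp and lgals1.3, which were named after their values were seen. Xenoxin1.L, another skin gland peptide, read 7.49, 7.99 and 1.89, and lgals1.3.L, a galectin, read 7.33, 7.60 and 2.05. On replicate 3 xenoxin1, lgals1.3, sgp and levi were at or near the floor, sgp.S at 2.07 and levi.L at 2.25. In contrast, fos, xt6l and levi.2 stayed above the detection minimum.

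**Figure D4:**
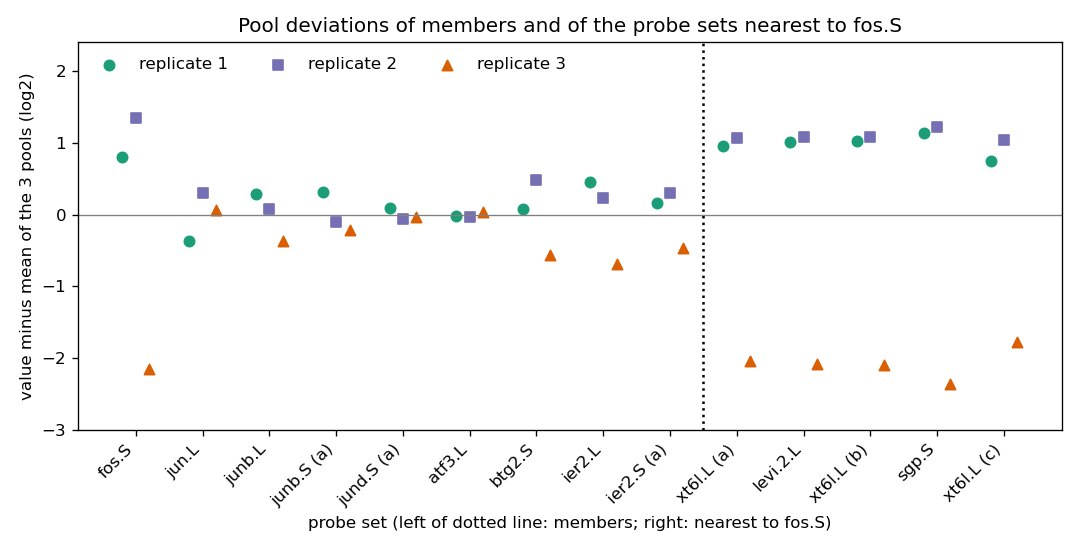
Deviation of each array from the mean of the 3 pools (log2, y axis) for the 9 detected members, left of the dotted line, and for the 5 Xl-PSIDs nearest to fos.S, right of it, with letters in order of distance for xt6l.L. The replicate 3 triangles of fos.S and of the 5 Xl-PSIDs on the right lie near -2, and those of all other members between -0.68 and 0.07.

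Cell type markers also differed between the pools. Some, such as those of skin gland and muscle, stand for tissues that a dissection could carry along. Neurons and Schwann cells can belong to the nerve of the ear itself. For comparison with the counts that follow, 24.6% of all and 33.6% of detected Xl-PSIDs were lowest on replicate 3. The share highest on replicate 3 was not counted, so counts of markers highest there stand without a comparison. All 5 measured skin gland genes were lowest on replicate 3. The log2 of their summed intensity was 11.87, 12.03 and 10.63 on replicates 1, 2 and 3. Among them xt6l, levi.2 and xenoxin1 were already named above as being as low on replicate 3 as fos. This count therefore adds no separate view of skin gland content. While 4 of the 5 were lower on replicate 3 than the mean of the others by 1.5 or more, magainins.L, of highest mean, read 10.49, 10.61 and 10.30. Against replicates 1 and 2 singly, 0.682% and 0.492% of all Xl-PSIDs were lower on replicate 3 by as much. Neuron markers were lowest on replicate 3 for 10 of 11 genes, with sums of 15.28, 14.81 and 14.27, and elavl3 and syt1 were below the minimum. Skeletal muscle markers mostly ran the other way. They were highest on replicate 3 for 7 of 10 genes, with sums of 13.09, 12.83 and 13.88. The other 3, myh4, myh8 and atp2a1, were highest on replicate 1, and myh4 and atp2a1 were lowest on replicate 3. Leukocyte markers were lowest on replicate 3 for 5 of 6 genes, with sums of 13.67, 13.67 and 13.48 and ptprc at the floor. Schwann cell markers were lowest there for 2 of 4, with sums of 15.71, 15.56 and 15.49 and egr2 at the floor. Erythrocyte markers were lowest there for 3 of 5 and highest there for 2, with sums of 15.59, 15.63 and 15.52. The gene of highest level, hbg1.L, weighs most in these sums and read 15.16, 15.17 and 15.21. Next in level, hba1.S was lowest on replicate 3, at 13.46, 13.53 and 12.92. At levels that add little to the sums, hba3.L read 6.95, 8.75 and 6.20, and hbd.S read 7.83, 9.12 and 6.41. Inner ear markers were lowest on replicate 3 for 4 of 13 genes and highest there for 6, with sums of 16.42, 16.32 and 16.39. The genes of highest level, otos and gjb2, weigh most in these sums. A gene of lower level, calb1.L, read 9.35, 7.58 and 6.96 on replicates 1, 2 and 3. Among detected Xl-PSIDs of the members, replicate 3 thus had the lowest fos, junb, ier2 and btg2, but not the lowest jun, jund or atf3. Sums were lowest there for skin gland, neuron, Schwann cell, leukocyte and erythrocyte markers, but not for inner ear or muscle markers. For Schwann cell and erythrocyte markers these sums were close to the next lowest, at 15.49 against 15.56 and 15.52 against 15.59. The inner ear sums also lay close together, from 16.32 to 16.42. Replicate 3 also had the highest sum of muscle markers and the lowest 5′ minus 3′ differences of control transcripts. The part of each of these in the values of fos was not tested.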

How the data were processed

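Inner ear RNA of 3 juvenile pools was hybridised to Xenopus laevis GeneChip arrays (Affymetrix). The authors preprocessed the scans with GCRMA in JMP Genomics, a sequence-based background correction followed by normalization between arrays, and deposited 1 log2 value per Xl-PSID and array. For the choice of arrays normalized together, the sources used here say nothing. GCRMA compresses differences near its floor, and having 3 arrays limits precision.

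The 96 control Xl-PSIDs of 32635 were left out except for 5′ to 3′ differences, and no columns were identical. Symbols came from the platform annotation, and list genes were also matched through Entrez IDs in a RefSeq table (Xenopus_laevis_v10.1). Of 32539 Xl-PSIDs, 15495 had 1 symbol, 279 several and 16765 none. A mean above 4 was tested one-sided with limma 3.58.1 in R 4.3.3, fitted over all Xl-PSIDs with Benjamini-Hochberg adjustment at 0.05, and tested on simulated data. Other values are differences between arrays (pandas 2.3.3). The stage ANOVA of the study was not run, since all arrays form 1 group.

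Members and lists were chosen with earlier results of these data known. Every member is given. From each of 6 lists the Xl-PSID of largest range, that of highest mean and detected genes with a range of 1.5 or more are named. Srf, creb1, atf1, hsph1, mmp1, mmp3 and lif were named after their values were seen. A list gene is represented by its Xl-PSID of highest mean, and a summed level is the log2 of summed unlogged intensities. Alternatives were other minimums, quantile normalization, other Xl-PSID sets and leaving out each replicate.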

Additional observations from a re-analysis of the deposited data

How the results depend on the processing

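No paired analysis was possible because all arrays form a single group. The value of fos on replicate 3 against the others was -3.22 as deposited and -3.17 with quantile normalization, and with either other replicate left out it ranged from -3.49 to -2.95. No second fos Xl-PSID with 1 symbol was at hand for another reading. Detection counts of the members stayed within 1.5 times their value under every alternative run (7 to 9 of 12), and without a replicate they were 7 to 9. The limma call for fos was lost at a minimum of 6 (adjusted p = 0.0874) and without replicate 1 or 2 (0.102 and 0.0841). Without replicate 3 the call for fos was kept (limma adjusted p = 0.00762). In the same test junb.S passed at a minimum of 3 (0.00604). At a difference minimum of 1, 2 members in place of 1 differed between replicates 1 and 3 and between replicates 2 and 3.

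Medians over the members of 1 replicate minus the others were small and moved with the set of Xl-PSIDs, since 3 members lie at the floor. Over detected members alone they were 0.35 for replicate 2 and -0.56 for replicate 3, and with 1 value per gene 0.46 and -0.56. With a replicate left out, the median was -0.000611 to 0.33 for replicate 1, 0.000611 to 0.17 for replicate 2 and -0.33 to -0.17 for replicate 3. With replicate 3 left out the members went both ways between replicates 1 and 2, from -0.68 for jun.L to 0.41 for junb.S. Detection is limited at values near the floor, where differences are compressed.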
